A study of Sus scrofa with 102 samples.

Results

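Fetal liver was compared with fetal longissimus dorsi muscle in 85-day-old female pig fetuses, on the 11 liver and 12 muscle arrays left after 1 liver array was set aside, 23 of the 102 arrays of the series. The members were chosen by tissue and age alone: every liver or muscle array of a fetus removed on gestational day 85. Of the 23 arrays, 5 held liver of LWDL fetuses, 6 liver of LWDM fetuses, 6 muscle of LWDL fetuses and 6 muscle of LWDM fetuses. LWDL fetuses had a Landrace sire and LWDM fetuses a Meishan sire, and the dams of both were crosses of Landrace, Large White and Duroc (LWD). The crosses used 2 dams and 1 boar of each sire breed, and the dam of a given fetus is not given in the sources used here, so the p values measure the spread among related fetuses. No fetus was treated. On every array the RNA of 1 fetus carried Cy3 and competed with one and the same reference in Cy5, pooled from the livers of 2 LWD females and called the control. Liver and muscle arrays of female 5-month-old pigs of both breed types serve below as the older comparison, and arrays of 12-day-old pigs give single levels. Every level below is the log2 ratio of a tissue of a fetus or an older pig over the liver of sows, and a level of 0 stands for equal signals in both channels. A difference is liver minus muscle on the log2 scale, given with its standard error from limma. A probe was called where the difference was over 2-fold, that is over 1 on the log2 scale, and its p, adjusted over all tested probes after Benjamini and Hochberg, was under 0.05.

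The liver of a late fetus is an organ of both metabolism and blood formation. Its hepatocytes secrete plasma proteins and begin to take up metabolic tasks, while islands of hematopoietic cells between them still make red and white blood cells. Fetal skeletal muscle at this age is laying down myofibers inside a growing connective tissue sheath, and its fibers build sarcomeres, calcium stores and synapses with motor nerves. The study asked how the sire breeds differ within a tissue. The comparison of the tissues is a question about identity that the same arrays also answer.

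The share of probes whose Cy3 signal cleared the background was 68.3% to 73.6% per array, and the median spot was 2.81 to 4.46 times its background. The number of arrays and this signal over background limit the precision. Over the tested probes, the arrays of liver correlated with each other at 0.912 to 0.966, those of muscle at 0.956 to 0.987, and arrays of different tissues at 0.453 to 0.530. The array set aside, liver LWDL replicate 2, correlated with the other liver arrays at only 0.151 to 0.212. Its Cy3 signals correlated with the mean control signals of all 24 fetal arrays at 0.986, against 0.941 to 0.950 for the other liver arrays. Liver and muscle lay on 3 slides each and no slide held both. With the slide as a random block, arrays of a slide correlated at 0.18 and 11066 probes were called between the tissues, 11050 of them among the 11078 called without it. All fetal arrays were scanned on 1 day. No pair of arrays held identical values.

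Markers of the labelled cell types were found where the labels place them. The mean level of 9 hepatocyte markers was -0.29 to 0.74 on the liver arrays and -6.75 to -6.27 on the muscle arrays. All 9 were called higher in liver, and 4 of them were not well above background on any muscle array. The mean of 17 markers of skeletal muscle fibers was 5.98 to 6.25 in muscle and 0.65 to 0.96 in liver. All 17 were called higher in muscle, and 9 of them were above background on no liver array. ALB, TTR, APOB and SERPINA1 carry no symbol in the tables used here and were not analysed.

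Both tissues also carried markers of other cells. In liver, 6 erythroid markers had a mean of 2.40 to 3.14, against 0.66 to 1.02 in muscle, and 10 white blood cell markers a mean of 0.53 to 1.42, against -2.94 to -1.66. In muscle, 4 fibroblast markers (COL1A2, LOX, POSTN and THY1) had a mean of 3.78 to 5.12, against 0.32 to 1.58 in liver. The means of 3 adipocyte markers were 2.22 to 2.97 in muscle and -0.98 to 0.02 in liver. Of these 3, LPL and PPARG were called higher in muscle, while G0S2 leaned to liver (0.85) and was not called. PLIN1 and LEP were not tested. For these 4 lists the tissues did not overlap on any array. A tissue with fewer cells of a type cannot be told apart from one with less RNA of that gene per cell, and the part of such cells in the differences below was not tested.

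**Figure D1:**
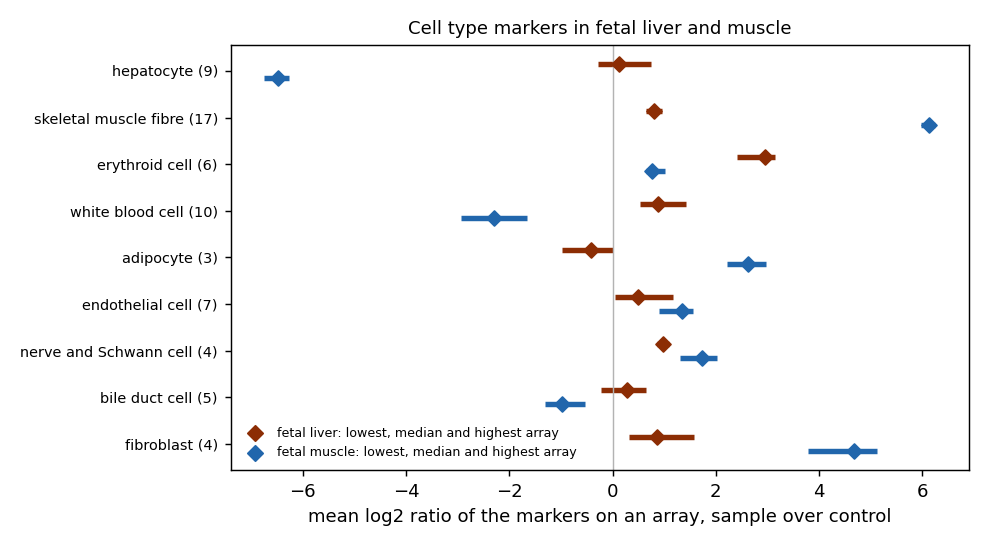
The horizontal axis gives the mean log2 ratio of sample over control of the markers of a cell type (number of tested markers in parentheses) on an array. Bars run from the lowest to the highest array and diamonds mark the median array of fetal liver (brown, 11 arrays) and fetal muscle (blue, 12 arrays). The medians of the hepatocyte markers are 0.12 in liver and -6.48 in muscle, and those of the muscle fiber markers 0.79 and 6.14.

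Endothelial, nerve and bile duct markers were split between the tissues. Among 7 endothelial markers, CD34 (-4.52 ± 0.15), CD300LG (-3.03 ± 0.14) and CLEC1A (-2.84 ± 0.27) were higher in muscle. CLEC4G, a lectin of the liver sinusoid lining, was higher in liver (4.03 ± 0.18), as was ESM1 (1.6 ± 0.25), and PECAM1 and MMRN2 were not called. The neuronal genes NEFL and STMN2 were called higher in muscle and were above background on no liver array. Of the bile duct markers, CDH1, KRT19 and PKHD1 were higher in liver, PROM1 was higher in muscle and SOX9 was not called.

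Of 43221 probes, 31823 were tested and 11078, or 34.8%, were called. The calls were split evenly: 5518 probes (17.3%) were higher in liver and 5560 (17.5%) higher in muscle. The median difference over all tested probes was -0.004 and the median of its size was 0.62. On 15040 probes, 47.3%, every array of one tissue lay above every array of the other. A difference of over 8-fold was found for 1524 probes higher in liver and 1533 higher in muscle, and one of over 128-fold for 172 and 83. On 484 probes every liver array and no muscle array was well above background, and on 770 probes every muscle array and no liver array. The control is liver as well, and it was above background on no array for 532 (9.57%) of the probes called higher in muscle and for 117 (2.12%) of those called higher in liver.

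Symbols come from the study's lists of probes that differed between the sire breeds in some tissue, and they name 1241 of the genes tested here. Of these, 370 were higher in liver, 385 higher in muscle and 486 not called, which is 60.8% called against 34.8% of all probes. Since the named genes had been listed for a difference in these same arrays or in those of other ages, the larger share says nothing of tissues in general. Where a tissue was not well above background on any array, the fitted difference is set against values near background, and a bound, "at least N-fold", is given for most named genes. The bound sets the brighter tissue against the lowest signals well above background in the dimmer one, on the Cy3 channel alone after normexp, loess and quantile normalization. It is open to dye bias because the dyes were never exchanged, and it was above the fitted ratio for 76 of the 1557 called probes with a dim tissue. For such probes no bound is given.

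The named genes with the largest fitted differences on the liver side included AFP, IGFBP1 and 4 metallothioneins. AFP, alpha-fetoprotein, is the main plasma protein of the fetus. Its level ran from 7.89 to 8.44 in liver (median 8.26) and from -6.42 to -4.04 in muscle (median -6.15). All 11 livers thus lay far above the sow liver control and all 12 muscles far below it, and AFP was well above background on no muscle array. The difference was 14.12 ± 0.20 (adjusted p = 4.74e-26), and liver was at least 7568-fold higher. IGFBP1, a binding protein that hepatocytes release to hold insulin-like growth factors in the blood, ran from 1.01 to 4.56 in liver (median 2.84) and from -8.59 to -8.05 in muscle (median -8.38). Its difference was 11.29 ± 0.26 (adjusted p = 1.20e-21).

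Metallothioneins are small cysteine-rich proteins that store zinc and copper, and fetal liver is known as a reservoir of both metals. The probe named MT2A had levels of 1.48 to 3.18 in liver (median 2.60) and -8.49 to -8.09 in muscle (median -8.30), with a difference of 10.65 ± 0.15 (adjusted p = 7.88e-26). The probes of MT1E, MT1L and MT1F differed by 10.59, 9.97 and 9.15. In each of the 4, every liver array was above the control and every muscle array below it. The probes of MT2A, MT1E and MT1L are all given the pig symbol MT1A and that of MT1F the symbol MT-2B. These near-identical genes may share signal on their probes, so the 4 are not independent. MT1F was above background on no muscle array (at least 203-fold).

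On the muscle side the largest fitted differences among the named genes were those of TXLNB, NEB, MFAP5, ARPP21, ACTA1, LPL, MYL1 and MURC. Of these, ACTA1 was above background on 3 liver arrays, MURC on 6 and the others on none, and for the latter the bounds give another order than the fitted values. TXLNB, beta-taxilin, a protein of striated muscle, was written as exactly 0 on all 11 liver arrays, where neither channel was above background, and lay at 9.27 to 10.56 in muscle (median 9.89). Such zeros made up 0.773% of the values, and neither channel was well above background in any of them. The fitted difference of TXLNB was -9.88 ± 0.12 (adjusted p = 4.54e-27), and muscle was at least 66.7-fold higher. NEB, nebulin, the ruler of the thin filament, lay at -1.04 to 1.16 in liver (median 0) and 9.13 to 10.20 in muscle (median 9.79). No liver array was above background for it, and muscle was at least 261-fold higher (difference -9.51 ± 0.22, adjusted p = 9.96e-22).

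Outside the sarcomere, MFAP5, a glycoprotein of elastic microfibrils, lay at -2.08 to -0.27 in liver (median -1.69) and 7.23 to 7.48 in muscle (median 7.35). It too was above background on no liver array, and muscle was at least 428-fold higher (difference -8.85 ± 0.17). ARPP21, a phosphoprotein best known from neurons, was at 6.92 to 8.76 in muscle (median 8.15) and at exactly 0 on 9 liver arrays (at least 17.8-fold). LPL, the lipase that frees fatty acids from circulating triglycerides at the capillary wall, was at 6.44 to 7.05 in muscle (median 6.86) and -1.58 to -0.30 in liver (median -0.86). No liver array was above background for LPL (at least 40.1-fold, difference -7.73 ± 0.14). Of the adipocyte markers, LPL and PPARG (-2.25 ± 0.13) were higher in muscle, G0S2 was not called, and PLIN1 and LEP were not tested because neither tissue had them above background on every array of a group.

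**Figure D2:**
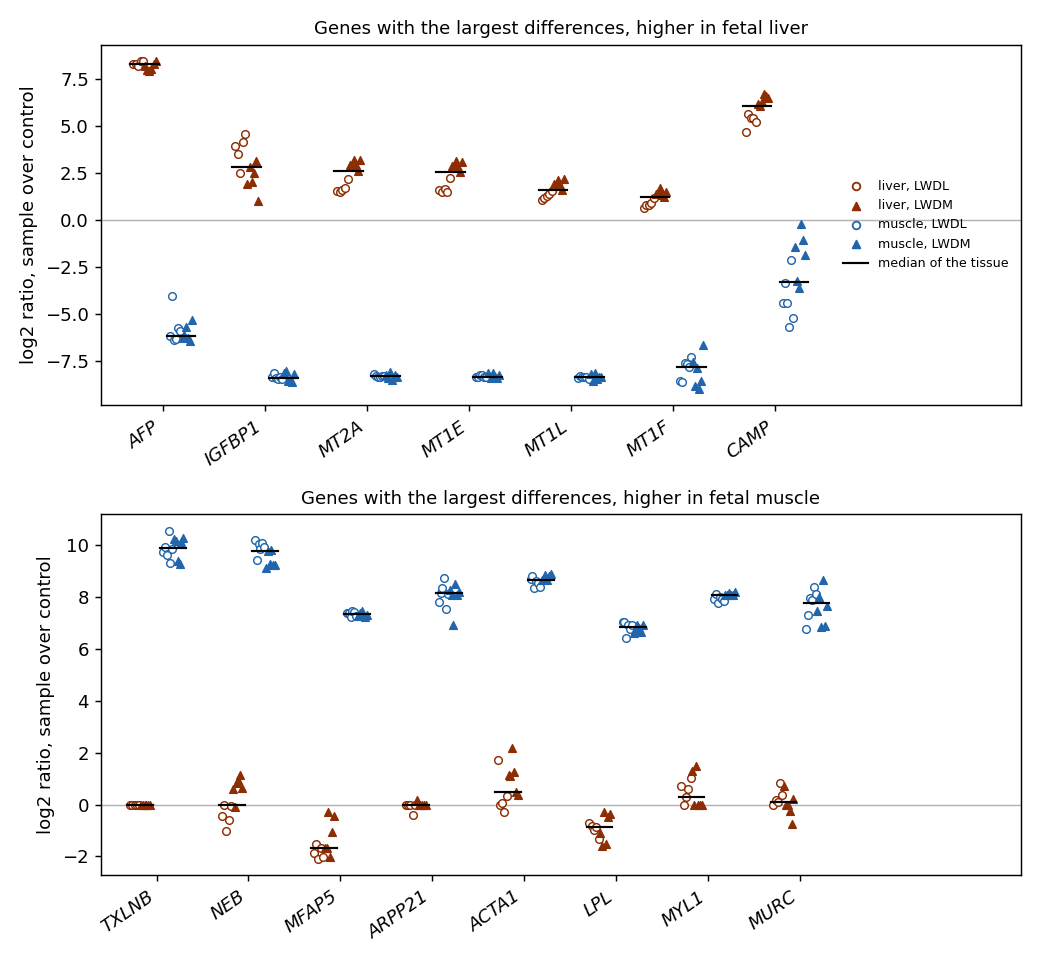
The vertical axis is the log2 ratio of sample over control on each array, for 7 genes higher in liver and 8 higher in muscle, among the named genes with the largest difference whose tissues did not overlap. Open circles are LWDL and filled triangles LWDM arrays, brown for liver and blue for muscle, and the black line is the median of a tissue. The muscle arrays of AFP lie at -4.04 and below, while its liver arrays lie at 7.89 and above.

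Plasma proteins and their receptors were nearly all higher in liver: 13 of 15 tested genes, with a median difference of 5.74 that was 3.48 under normexp and loess. RBP4, which carries retinol in plasma, was at 0.059 to 0.46 in liver (median 0.26) and -8.56 to -8.02 in muscle (median -8.27). The livers of the fetuses were thus close to the sow livers, and the difference was 8.53 ± 0.062 (adjusted p = 1.82e-31). ASGR1, the hepatocyte receptor that clears desialylated glycoproteins, was at 0.24 to 2.26 in liver (median 2.10) and -6.59 to -5.59 in muscle (median -5.80), with a difference of 7.78 ± 0.18. The carriers and hormones SERPINA6 (corticosteroid-binding globulin, 5.81) and AGT (angiotensinogen, 5.74) and the complement component C5 belonged to the same side, C5 with no muscle array above background (at least 14-fold). These 3 were picked from the list after their values were seen.

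Not every gene of the list followed. MASP1, a protease of the lectin pathway of complement, was the one gene called higher in muscle, with levels of 0.30 to 0.83 in liver and 2.63 to 3.36 in muscle and a difference of -2.34 ± 0.083 (adjusted p = 4.42e-18). C1S, a protease of the classical pathway, was not called (0.95 ± 0.21, adjusted p = 2.67e-04). C1S lay close to the 2-fold threshold and was called with the replicate number as a block (1.02, adjusted p = 4.83e-04), under normexp and loess (1.07), after centring (1.02), with liver LWDL replicate 2 included (1.33) and in LWDM fetuses alone (1.52). Leaving out single arrays gave 0.83 to 1.07, with C1S called without liver LWDL replicate 1 (1.01), 3 (1.02), 5 (1.03) or 6 (1.07) and without muscle LWDL replicate 2 (1.02). CP, ceruloplasmin, the copper-carrying oxidase of plasma, was not tested here since no fetal group had it above background on every array. Its level is given below with the older pigs.

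The enzymes that handle drugs, steroids and retinoids were higher in liver in 15 of 20 tested genes, with a median difference of 2.66, and none was called higher in muscle. SULT1C3, a sulfotransferase, was at 1.77 to 3.97 in liver, above the sow livers, and above background on no muscle array (at least 6.31-fold). AKR1C2 (5.36 ± 0.12), a reductase of steroid ketones, was also higher in liver.

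For ADH1C, an alcohol dehydrogenase that also oxidizes retinol, liver ran from -9.43 to -5.56 (median -6.34) and muscle from -11.32 to -10.69 (median -10.94). Both tissues were far below the sow liver control, and the fetal livers still exceeded the muscles by 4.21 ± 0.29 (adjusted p = 2.19e-12). The genes not called were CYP3A4, CYP3A5, GSTA3, PON3 and RDH16, at differences between -0.005 and 0.81. The CYP3A4 probe, named for pig CYP3A29, was at -6.26 to -6.11 in liver and -6.35 to -5.91 in muscle, so that the tissues overlapped at about the same distance below sow liver. The human symbols of these families stand for the nearest human gene, and members may share probes.

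Sterol synthesis was the one list of genes by function in which every tested gene was called in one direction: all 14 were higher in liver, with a median difference of 2.99. CYP51A1, which removes a methyl group from lanosterol, differed by 3.91 ± 0.13, EBP, the sterol isomerase, by 3.88 ± 0.058, and ACAT2, which makes acetoacetyl-CoA at the start of the pathway, by 3.77 ± 0.084. SREBF2, the transcription factor that drives these genes, was on the same side with a smaller difference of 1.69, an example picked after its value was seen. All probes of these 3 enzymes were called in the same direction.

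Genes of glucose, amino acid and ketone metabolism were higher in liver in 11 of 16, with a median difference of 2.91 (1.67 under normexp and loess). AMDHD1, an enzyme of histidine breakdown, was at -0.72 to 0.18 in liver (median -0.37) and -8.14 to -7.65 in muscle (median -7.82), a difference of 7.54 ± 0.088 (adjusted p = 1.13e-27). CHDH, choline dehydrogenase, differed by 4.80 ± 0.12. CA5A, a mitochondrial carbonic anhydrase that feeds gluconeogenesis and ureagenesis, was above background on no muscle array (at least 5.37-fold). ACMSD, which diverts tryptophan breakdown from NAD synthesis, differed by 4.69 ± 0.50, and its tissues overlapped because 1 muscle array stood at -2.77 while the other muscles were at -7.42 or lower. Among the genes not called were GPT, OAT, PCK1 and PRODH. Of these, PCK1, the gate of gluconeogenesis, had a difference of 0.73 ± 0.098 on the represented probe, and 3 of its 4 probes were called higher in liver.

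Hepatic solute carriers were divided, with 4 of 9 higher in liver, 2 higher in muscle and 3 not called (median 0.81, or 0.20 under normexp and loess). The amino acid transporter SLC6A20 and the organic anion transporter SLC22A9 were above background on no muscle array (at least 5.07-fold and at least 5.13-fold). SLC22A3, the organic cation transporter OCT3, went the other way, with -3.34 to -1.24 in liver (median -2.68) and 2.21 to 3.21 in muscle (median 2.62). All muscles of SLC22A3 thus lay above the sow livers and all fetal livers below them, a difference of -4.99 ± 0.21. SLC6A12 (0.029 ± 0.17) and TTPA, which loads vitamin E into lipoproteins (0.81 ± 0.16, or 1.04 and called on the Cy3 channel alone), were not called.

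Erythroid genes were higher in liver in 6 of 8, with a median of 1.93 (1.07 under normexp and loess). KEL, the Kell blood group protein of red cells, was at exactly 0 on 1 liver array and at 3.92 to 4.50 on the other livers, against -2.02 to 0 in muscle. Leaving that zero aside the tissues would not overlap, and the difference with it was 4.53 ± 0.42 (adjusted p = 5.45e-10). HBE1, embryonic epsilon globin, was at 2.37 to 4.32 in liver (median 3.52) and -0.91 to 1.91 in muscle (median -0.042), a difference of 3.46 ± 0.20. ERMAP (3.34 ± 0.18) and ART4 (2.56 ± 0.19), 2 further blood group genes, were also higher in liver. ANK1, ankyrin of the red cell membrane, which striated muscle also makes in a short form, had levels of 3.69 to 4.24 in liver and 4.18 to 4.64 in muscle, and was not called (-0.30 ± 0.053), although the Cy3 channel alone gave -2.43. Of its 3 probes, the other 2 were called higher in muscle. HBQ1, theta globin, was not called either (-0.89 ± 0.23), but was in LWDM fetuses alone (-1.61).

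White blood cell genes were higher in liver in 12 of 15, with a median of 2.07 (1.09 under normexp and loess). CAMP, a cathelicidin stored in neutrophil granules, whose probe carries the pig symbol PMAP-23, was at 4.66 to 6.71 in liver (median 6.05) and -5.70 to -0.21 in muscle (median -3.31). All livers were far above sow liver, all muscles below it, and the difference was 8.85 ± 0.39 (adjusted p = 3.82e-16). The calgranulins of neutrophils and monocytes followed: S100A12 differed by 5.77 ± 0.21 and S100A9 by 5.17 ± 0.11, and S100A9 was at 4.71 to 5.37 in every liver. LYZ, lysozyme, was above background on no muscle array, spread from -3.69 to 3.51 over the livers, overlapped with the muscles (-3.50 to -1.96) and lost its call in LWDM fetuses alone (2.09, adjusted p = 0.101).

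Macrophage genes were called in both directions. CD163, a scavenger receptor of resident macrophages, was higher in liver (1.5 ± 0.12). MS4A7 was higher in muscle, at 3.55 to 4.73 against 0.92 to 2.45 in liver (-2.60 ± 0.17), as was the Fc receptor gene FCGR1A (-1.87 ± 0.15). Both are expressed by monocytes and macrophages. The T cell genes CD2 and LCK were higher in liver by 2.07 and 1.33, with levels below sow liver in both tissues, as was CD3G, which was above background on 9 livers and no muscle (at least 1.43-fold). CD8A was not called (0.78 ± 0.26), except in LWDL fetuses alone (1.32). CD163, CD2, CD3G and LCK were picked after their values were seen.

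Cell division genes stood apart from both sides: 12 of 15 were not called, 2 were higher in liver and 1 in muscle, with a median of 0.42 that ran from 0.19 with liver LWDL replicate 2 included to 0.67 on the Cy3 channel alone. The 2 were CCNE1, cyclin E1, which takes cells from G1 into S phase (1.2 ± 0.17), and GINS1, a subunit of the replicative helicase (1.09 ± 0.11). The 1 was FAM111B (-1.06 ± 0.069). None of the 3 kept its call under normexp and loess (0.75, 0.89 and -0.80). The 12 genes not called lay between -0.78 and 0.88. The upper end was CCNB2, cyclin B2, at 4.89 to 5.53 in liver and 3.87 to 4.74 in muscle, with both tissues above the sow livers. Ribosomal protein genes were not called in 8 of 8, with a median of 0.13 that was -0.08 in LWDM fetuses alone and 0.70 on the Cy3 channel alone.

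The sarcomere and Z disc list was higher in muscle in 19 of 20 tested genes, with a median of -5.60 (-10.25 on the Cy3 channel alone). ACTA1, skeletal alpha-actin, was at 8.35 to 8.91 in muscle (median 8.68) and -0.30 to 2.18 in liver (median 0.47), a difference of -7.93 ± 0.20 (adjusted p = 7.87e-21). MYL1, the essential light chain of fast fibers, was at 7.77 to 8.22 in muscle (median 8.08) and 0 to 1.49 in liver. The liver and control values of MYL1 sat near background on many arrays, no liver array was well above background, and the fitted difference was -7.53 ± 0.16. MYO18B, an unconventional myosin, was the one gene not called, at -0.85 ± 0.098, and no array of its tissues overlapped. It was called under normexp and loess (-1.28), on the Cy3 channel alone (-4.05), in LWDM fetuses alone (-1.03) and with liver LWDL replicate 2 included (-1.12).

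The myosin heavy chains, picked after their values were seen, differed among themselves. The probe named MYH8, the perinatal heavy chain, carries the pig symbol MYH4, so which of these near-identical genes it reads is uncertain. It lay at 6.00 to 7.64 in muscle (median 7.18) and was above background on no liver array. The probe of MYH4, the heavy chain of the fastest fibers, was at 2.00 to 5.90 in muscle (median 4.73), and no liver array was above background for it either. For MYH7, the heavy chain of slow fibers, muscle was at 6.66 to 7.16 and liver at 4.35 to 5.51, above background on all 11 liver arrays. Its difference was -2.0 ± 0.10, since the fetal livers, too, lay far above the livers of sows for this probe.

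Genes of the muscle membrane, calcium handling and the neuromuscular junction were higher in muscle in 12 of 14, with a median of -4.20 (-1.95 under normexp and loess). MURC, a caveolar coiled-coil protein of muscle, was at 6.76 to 8.66 in muscle (median 7.78) and -0.74 to 0.82 in liver (median 0.10), a difference of -7.53 ± 0.21. CHODL, a membrane lectin, was above background on no liver array (at least 18.3-fold). RYR3, the calcium release channel that fetal muscle has beside RYR1, was at 4.97 to 8.14 in muscle (median 7.44), at exactly 0 on 9 livers, and differed by -7.24 ± 0.24. SLN, sarcolipin, which restrains the calcium pump of the reticulum, was at 5.45 to 5.83 in muscle (median 5.67) and above background on no liver array, with a fitted difference of -5.44 ± 0.13.

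The genes of that list not called were ABCC8 and HOMER1. HOMER1, a scaffold protein, had a difference of 0.50 ± 0.093. ABCC8, the sulfonylurea receptor subunit of ATP-sensitive potassium channels, was at exactly 0 on all 5 LWDL livers and at 1.74 to 1.85 on all 6 LWDM livers, against 1.21 to 1.74 in muscle. Its pooled difference of -0.53 ± 0.18 thus stands between -1.37 in LWDL and 0.23 in LWDM fetuses. ABCC9, the related subunit of muscle channels, was called higher in muscle (-2.61 ± 0.15).

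Energy metabolism of muscle was less one-sided, with 11 of 16 higher in muscle, 1 higher in liver, 4 not called and a median of -1.85. CA3, the carbonic anhydrase of slow fibers, was at 0.35 to 1.14 in muscle (median 0.79) and -6.55 to -3.57 in liver (median -4.90), a difference of -5.75 ± 0.21 that all 7 of its probes shared. PRKAG3, the AMP kinase subunit of glycolytic muscle, and PYGM, muscle glycogen phosphorylase, were above background on no liver array (at least 9.09-fold and at least 19-fold). AK4, a mitochondrial adenylate kinase, went against the list, at 2.69 to 3.48 in liver (median 2.96) and -3.49 to -1.88 in muscle (median -2.35). Its difference was 5.52 ± 0.14 (adjusted p = 8.67e-21). The creatine kinase CKB (0.58 ± 0.090), ENO2 (-0.46 ± 0.17), PGM1 (-0.60 ± 0.26) and PPP1R3C (-0.13 ± 0.21) were not called.

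Extracellular matrix and connective tissue genes were higher in muscle in 16 of 22, with a median of -3.40, which moved to -1.50 under normexp and loess. ITGBL1, a secreted integrin-like protein, was above background on no liver array (at least 30.4-fold), nor was MKX, the tendon transcription factor mohawk (at least 10.5-fold). LOX, lysyl oxidase, which crosslinks collagen and elastin, was at 5.98 to 8.01 in muscle (median 7.38) and 0.67 to 3.09 in liver (median 2.15), a difference of -5.13 ± 0.22 (adjusted p = 1.63e-16). Both tissues exceeded the sow livers for LOX. POSTN, periostin, a matrix protein of growing connective tissue, differed by -3.57 ± 0.16. PCOLCE2, an enhancer of procollagen cleavage, was the one gene higher in liver (2.37 ± 0.25), and COL8A1, COL9A3, NID1, TGFBI and THBS1 were not called, at -0.62 to 0.46. Of this list, COL1A2, LOX, POSTN and THY1 are the fibroblast markers whose mean was higher on every muscle array.

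**Figure D3:**
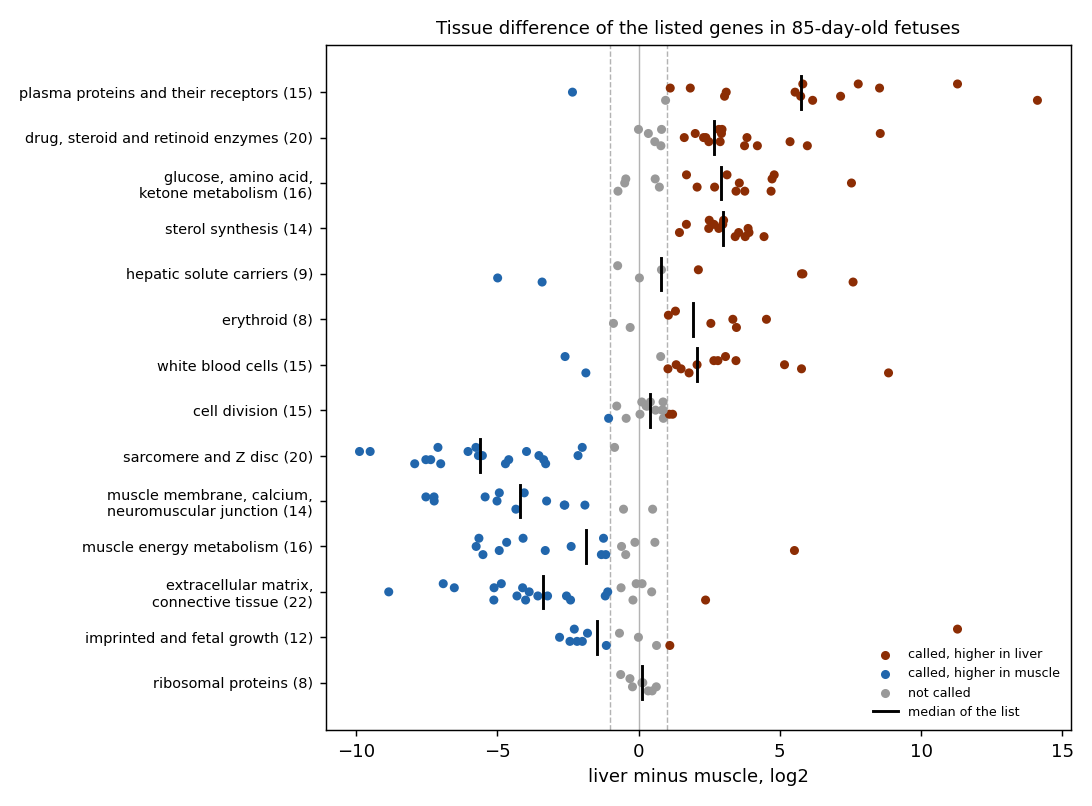
The horizontal axis is the difference of liver minus muscle in log2, one point for each tested gene of a list (number tested in parentheses). Brown points were called higher in liver, blue points higher in muscle, grey points were not called, the black bar is the median of the list and the dashed lines mark 2-fold. Sterol synthesis lies wholly to the right, the sarcomere wholly to the left, and cell division and ribosomal proteins around 0.

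Imprinted and fetal growth genes leaned to muscle, with 7 of 12 higher there, 2 higher in liver (IGFBP1 and IGFBP4, 1.11 ± 0.13) and 3 not called. GHR, the growth hormone receptor, was at -5.01 to -3.92 in liver (median -4.65) and -2.58 to -0.38 in muscle (median -1.96). The fetal livers lay further below the sow livers than the muscles did, and the difference was -2.80 ± 0.19 (adjusted p = 1.79e-12). DLK1, a paternally expressed Notch ligand relative of fetal tissues, was at 3.60 to 3.99 in muscle and 0 to 3.52 in liver, where 1 of 11 arrays was above background (-2.43 ± 0.26). PLAGL1, an imprinted zinc finger gene, differed by -2.28 ± 0.20.

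PEG10, a paternally expressed gene derived from a retrotransposon, was not called, and its tissues overlapped. It lay at 5.48 to 5.70 in liver (median 5.60) and 5.43 to 5.87 in muscle (median 5.57), with a difference of -0.006 ± 0.048, although the Cy3 channel alone gave 1.13. All 23 arrays were thus far above the livers of sows. IGF1, insulin-like growth factor 1, was below sow liver in both tissues and not called (-0.68 ± 0.057), with no overlap between the arrays. SNRPN was not called either (0.64 ± 0.067).

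The tissue difference of few probes differed between the breed types by over 2-fold, while 2919 had an adjusted p under 0.05 at any size. With 1 boar of each sire breed, the breed type and the boar cannot be told apart. Of the 31823 tested, 452 (1.42%) differed between LWDM and LWDL fetuses in liver minus muscle by over 2-fold, 229 with a larger and 223 with a smaller value in LWDM. The 2 breed types called 11251 and 11080 probes on their own arrays, and 9919 of these were called in both with the same direction and 4 with opposite directions. The count of 452 depended on the fit and on single arrays. It was 148 under normexp and loess and 736 with the replicate number as a block. It was also 707 without muscle LWDL replicate 2, 329 without muscle LWDL replicate 6, and 252 with liver LWDL replicate 2 put back.

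In 4 of the named genes with the largest such difference, the livers of the breed types did not overlap while the muscles did. PRIMA1, the membrane anchor of acetylcholinesterase, was at -5.07 to -3.78 on the 5 LWDL livers (median -4.59) and -1.06 to 0.69 on the 6 LWDM livers (median 0.11). Its muscles were at 0.47 to 1.33 in LWDL and 0.97 to 1.46 in LWDM, so the tissue difference was -5.39 in LWDL and -1.10 in LWDM fetuses (4.29 ± 0.35 between them, adjusted p = 1.46e-07). PRIMA1 was well above background on none of the 5 LWDL livers, so these fitted values are set against values near background. HENMT1, an RNA methyltransferase of the piRNA pathway, was at -0.70 to 3.60 on LWDL livers (median 1.93) and -3.70 to -1.74 on LWDM livers (median -2.99), with a tissue difference of 6.36 and 2.24 (-4.12 ± 0.94, adjusted p = 0.0137). With the array set aside put back, the HENMT1 difference was -3.06 with an adjusted p of 0.192.

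In the other 2 genes the tissue difference had another side or size in the other breed type. SLC47A1, the proton-coupled exporter MATE1, was not above background on 3 of 5 LWDL livers, ran up to 3.07 there (median 2.30), and was at 5.76 to 7.09 on LWDM livers (median 6.42). Its tissue difference was -2.82 in LWDL and 1.15 in LWDM fetuses (3.97 ± 0.66, adjusted p = 0.00186), and the pooled difference of -0.74 ± 0.53 was not called, while it was under normexp and loess (-1.03) and on the Cy3 channel alone (-2.33). PDE1C, a calmodulin-dependent phosphodiesterase, was at 1.16 to 2.04 on LWDL livers (median 1.94) and above background on no LWDM liver (-3.51 ± 0.33, adjusted p = 1.77e-06). Under normexp and loess, the difference of PDE1C between the sire breeds was -0.93, short of 2-fold.

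**Figure D4:**
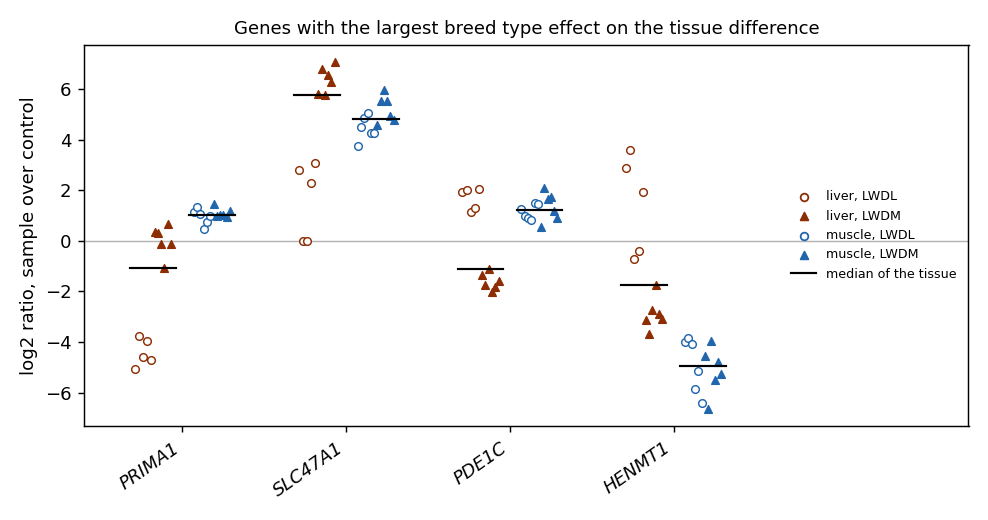
The vertical axis is the log2 ratio of sample over control on each array, for 4 of the named genes whose tissue difference differed most between the breed types. Open circles are LWDL and filled triangles LWDM arrays, brown for liver and blue for muscle, and the black line is the median of a tissue over both breed types. In each gene the LWDL and LWDM livers do not overlap.

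The contrast of the tissues was also made in fattening pigs. Liver and muscle of 5-month-old pigs were measured in 15 animals each, 8 LWDL and 7 LWDM. The fetal and 5-month arrays were scanned on different days, so age and scan day cannot be told apart. Of 34702 probes tested, the tissue difference itself differed between the ages by over 2-fold in 12741 (36.7%), with 6242 (18%) higher and 6499 (18.7%) lower in fetuses. Of the 1428 named genes tested between the ages, from which the lists are drawn, 329 were higher and 493 lower in fetuses. Among 30692 probes tested at both ages, 6908 were called between the tissues in the same direction at both and 381 in opposite directions. These 6908 were 67.4% of the fetal calls and 52.8% of the 5-month calls.

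The enzymes of drugs, steroids and retinoids were the list with the most genes on one side: 17 of 21 had a lower tissue difference in fetuses and 2 a higher one. The median difference of the list was 2.44 in fetuses and 5.19 at 5 months. CYP26A1, which clears retinoic acid, had a mean level of -8.49 ± 0.73 (SD) in fetal liver and -1.51 ± 0.32 in 5-month liver, while muscle was at -7.76 and -7.81. The tissue difference was lower in fetuses (-7.05 ± 0.35, adjusted p = 1.50e-24), and 1 of 11 fetal livers was above background. In CP, ceruloplasmin, all 11 fetal livers were not well above background, at -11.12 ± 0.24 (SD), close to the -11.41 ± 0.23 of fetal muscle. The 15 livers of 5-month-old pigs stood at -0.54 ± 0.23, near the sow livers, and the fitted tissue differences differed by -10.26 ± 0.14 (adjusted p = 3.04e-48), against fetal values of which 1 muscle array and no liver array was above background.

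Matrix genes were lower in liver minus muscle in fetuses in 16 of 25, that is, more on the side of muscle than at 5 months, and higher in 3. The median of the list was -2.53 in fetuses and -0.34 at 5 months. POSTN was at 3.76 ± 0.49 (SD) in fetal and -4.27 ± 1.18 in 5-month muscle, while liver stayed at 0.20 and -0.33, so its tissue difference turned from -3.56 to 3.93. IGSF10, an immunoglobulin superfamily protein, turned from -6.24 to 1.87, and PRSS35, a serine protease-like protein, from -3.45 to 4.15. IGSF10 was above background on only 2 of 11 fetal livers and 5 of 15 muscles at 5 months, and PRSS35 on 8 of these 15 muscles. The differences of these genes thus rest in part on values near background. In all 3 the mean of fetal muscle stood above and that of 5-month muscle below the control, while single arrays of PRSS35 in fetuses and of IGSF10 at 5 months lay on the other side.

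AFP and CP moved in opposite directions between the ages. AFP stood at 8.22 ± 0.19 (SD) in fetal and -2.18 ± 0.39 in 5-month liver, with muscle at -5.89 ± 0.67 and -3.32 ± 2.55, and the tissue difference was higher in fetuses by 12.91 ± 0.68 (adjusted p = 2.21e-23). No fetal muscle was above background for AFP, so the fitted value is not a measured fold. At 12 days AFP was still at 5.08 to 7.09 in the 11 livers. SLPI, a protease inhibitor of secretions and neutrophils, went from 5.77 ± 0.51 in fetal to -2.60 ± 1.43 in 5-month liver, with muscle at -2.40 and -3.10. The white blood cell genes CAMP and S100A9, picked after their values were seen, had tissue differences of 8.93 and 5.20 in fetuses and 2.11 and 0.79 at 5 months. Of the 19 genes of their list tested between the ages, 6 had a higher and 4 a lower tissue difference in fetuses, and the median of the list was 1.83 in fetuses and 1.32 at 5 months.

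Both tissues traded places in C6orf165 and SLC22A16. C6orf165, an open reading frame gene, was above background on all 11 fetal livers and no fetal muscle, and at 5 months on no liver and 11 of 15 muscles. SLC22A16, a carnitine transporter, was above background on all 11 fetal livers and 1 fetal muscle, and at 5 months on no liver and all 15 muscles. Its fitted tissue difference was 4.49 in fetuses and -4.31 at 5 months, each set against values near background. ANKRD33B, an ankyrin repeat gene, was at 2.48 in fetal liver and 2.33 in fetal muscle, a difference of 0.15 that became -7.28 at 5 months. ANKRD33B was above background on 9 of 11 fetal livers, 5 of 12 fetal muscles and 1 of 15 livers at 5 months. Both of its differences thus rest in part on values near background. Sarcomere genes had a median of -5.53 in fetuses and -5.78 at 5 months, with 9 of 21 higher and 3 lower in fetuses. Among them MYH7, picked after its values were seen, was at 4.96 in fetal and -0.39 in 5-month liver, with muscle at 6.95 and 6.69. PEG10 was at 5.60 in fetal liver and 5.60 in fetal muscle, and at 0.27 and 1.73 at 5 months.

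**Figure D5:**
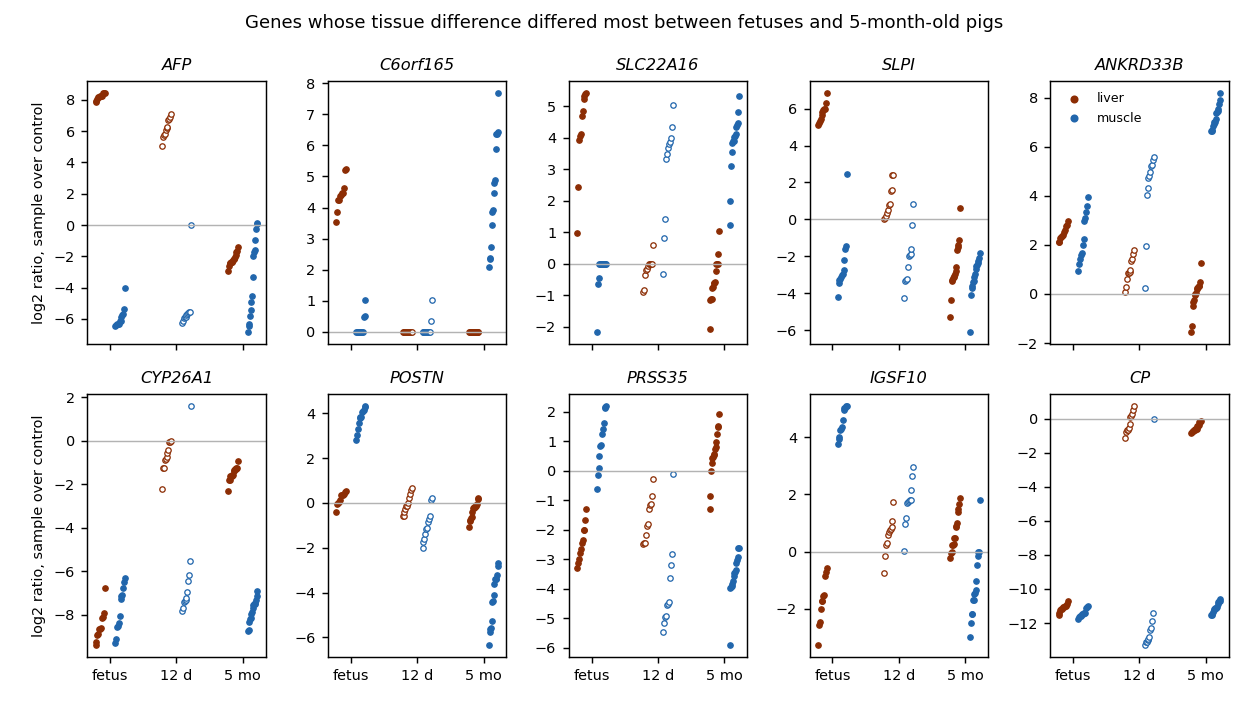
Each panel gives the log2 ratio of sample over control on every liver (brown) and muscle (blue) array at 3 ages, for the 5 named genes whose tissue difference was highest and the 5 whose difference was lowest in fetuses relative to 5-month-old pigs. Open points are 12-day-old pigs, which entered no test. A single muscle array of theirs lies near the control for AFP and CP, apart from the others. The fetal livers of CP lie among the muscles, at about -11.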

How the data were processed

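RNA of fetal liver and muscle, labeled with Cy3, was hybridized with the Cy5-labeled sow liver control to pig oligomer arrays designed on Sscrofa10.2, whose genome positions were not used here. The deposited intensity values of both channels, per the file headers, come from Feature Extraction 9.5, with which the authors subtracted the background and normalized the dyes. The deposited log10 values, ratios of Cy5 over Cy3, were inverted and rescaled to log2. A rounded copy in the authors' series table differed by at most 0.005. Of 44638 spots, 1417 control spots were left out, as were up to 14 outlier spots on an array.

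Probes were tested if all arrays of 1 or more of the groups of tissue and breed type had a Cy3 signal well above background and each tissue had 3 or more values. Tissue was fitted with breed type as a term in limma 3.58.1 (lmFit and eBayes, R 4.3.3, two-sided), and breed type and age as interactions. Alternatives were the methods' t-test and other normalizations, filters and arrays. In simulated data that held 200 probes with a log2 change of 1.5, 199 were recovered among 31768 probes for tissue, 178 for breed type, and 194 among 34536 for age.

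A gene is represented by its tested probe with the highest mean Cy3 signal. Named were, from each list, up to 4 called genes with the largest difference and every gene not called where these were 4 or fewer, then the 8 largest differences in either direction, the 5 largest between the ages in either direction and the 5 largest between breed types. Some genes that these rules name are not reported here. The genes and lists were chosen with earlier results of these data known. Human symbols are those of the study's tables, which pair 2011 probes with 1526 symbols.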

Additional observations from a re-analysis of the deposited data

Results flagged for a closer look

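Each named gene reported here was checked within the 4 groups of tissue and breed type for an array whose gap to the nearest other array was large for the range of its group (Dixon's ratio at the 95% level). Of 312 groups of values, 37 (11.9%) held such an array, where chance gives about 1 in 20. All values are log2 ratios of sample over control. On muscle LWDL replicate 2 it held for AFP at -4.04 (others -6.37 to -5.74), IGFBP1 at -8.11 (others -8.46 to -8.34), GINS1 at 3.14 (others 2.18 to 2.51), HOMER1 at -0.82 (others -1.83 to -1.57) and SLC22A16 at -0.64 (others all at 0). The array liver LWDL replicate 4 stood apart in ASGR1 at 0.24 (others 2.06 to 2.22), C1S at -3.31 (others -5.51 to -4.96), TTPA at -1.97 (others -1.66 to -1.57), PRKAG3 at -0.34 (others -1.62 to -1.32) and SLPI at 6.31 (others 5.10 to 5.43). For liver LWDM replicate 6, the values concerned were HBQ1 at 0.41 (others 0.63 to 0.72), RYR3 at 0.54 (others -0.27 to 0), MKX at -0.94 (others 0 to 0.025) and SLPI at 6.85 (others 5.63 to 5.98). On muscle LWDM replicate 3 it held for SULT1C3 at -2.29 (others -3.15 to -2.88), PYGM at 3.39 (others 5.63 to 6.43) and ARPP21 at 6.92 (others 8.07 to 8.51). The array muscle LWDL replicate 6 stood apart in AK4 at -3.49 (others -2.76 to -2.33) and PGM1 at 1.90 (others -0.87 to -0.36). For muscle LWDM replicate 6, the values concerned were ASGR1 at -6.59 (others -5.87 to -5.59) and IGSF10 at 4.24 (others 4.95 to 5.08).

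On liver LWDM replicate 5 it held for AMDHD1 at -0.054 (others -0.72 to -0.47) and TTPA at -0.91 (others -2.51 to -2.07). The array muscle LWDL replicate 1 stood apart in ACMSD at -2.77 (others -8.76 to -8.08) and MT2A at -8.18 (others -8.32 to -8.29). For muscle LWDL replicate 5, the values concerned were CD8A at -4.22 (others -2.98 to -2.30) and SLPI at 2.44 (others -4.18 to -3.02). On liver LWDL replicate 6 it held for PGM1 at 1.14 (others -1.01 to -0.71) and MT1E at 2.20 (others 1.5 to 1.65). The array liver LWDL replicate 3 stood apart in KEL at 0 (others 4.04 to 4.50). For liver LWDL replicate 1, the value concerned was ANK1 at 3.69 (others 4.04 to 4.12). On muscle LWDM replicate 1 it held for RYR3 at 4.97 (others 6.90 to 7.96). The array muscle LWDM replicate 2 stood apart in AK4 at -1.88 (others -2.36 to -2.23). For liver LWDL replicate 5, the value concerned was ARPP21 at -0.40 (others all at 0). On liver LWDM replicate 1 it held for ARPP21 at 0.16 (others all at 0). The array muscle LWDL replicate 3 stood apart in C6orf165 at 1.03 (others all at 0). For muscle LWDM replicate 4, the value concerned was SLC22A16 at -2.15 (others -0.45 to 0). Zeros stand for spots with neither channel above background.

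By the interaction test, the tissue difference depended most on the breed type in 4 of the named genes reported here. LWDM minus LWDL, it was 3.97 for SLC47A1, 4.29 for PRIMA1, -4.12 for HENMT1 and -3.51 for PDE1C. Smaller dependences on the breed type also passed both thresholds, among others in ABCC8, C1S, HBQ1, IGFBP1, MT1E, MT2A, NEB, S100A12 and SLC6A12. The pooled differences given above for these genes thus average over breed types that differed. The tissue difference depended on the age, by the same kind of test, most in 10 named genes. Fetuses minus 5-month-old pigs, it was 12.91 for AFP, 8.81 for C6orf165, 8.80 for SLC22A16, 7.69 for SLPI and 7.45 for ANKRD33B, and -10.26 for CP, -8.14 for IGSF10, -7.63 for PRSS35, -7.47 for POSTN and -7.05 for CYP26A1. Age and scan day cannot be told apart in these values.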

How the results depend on the processing

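The number of probes called between the tissues, 11078, stayed within 1.5 times under 11 of the alternatives, between 7803 (normexp and loess) and 12464 (no filter on dim probes), and leaving out single arrays gave 11037 to 11124 (5491 to 5546 higher in liver, 5536 to 5581 in muscle). It was 7029 for probes above background on all 23 arrays, of which 3302 were higher in muscle, and 25750 with no fold threshold (12825 higher in liver, 12925 in muscle). Under normexp and loess 3612 probes were higher in muscle. The cause of these changes was not tested, apart from the fewer probes of the stricter filter and the missing threshold. Liver held 48.9% to 53.7% of the calls under every alternative, and centring, done over the tested probes because the median over all probes of an array is already 0, moved the median difference to 0.057. The count for breed type, 452, was 736 with the replicate number as a block, 252 with liver LWDL replicate 2 included, 148 under normexp and loess and 2919 with no fold threshold. Leaving out single arrays gave 329 (without muscle LWDL replicate 6) to 707 (without muscle LWDL replicate 2). The count for age, 12741, was 8371 under normexp and loess. The direction was turned for SLC47A1 in LWDM fetuses alone (1.15), for PDE1C in LWDL fetuses alone (0.53), for PEG10 on the Cy3 channel alone (1.13) and for the median of the ribosomal proteins in LWDM fetuses alone (-0.082). Of 83 named genes, 75 kept their side of the threshold under normexp and loess, 78 on the Cy3 channel alone and 82 with the replicate block. Fold sizes moved more than calls: the median of the sarcomere list was -10.25 on the Cy3 channel alone and -5.21 under normexp and loess. Liver and muscle arrays share replicate numbers, but the labels do not say that a number is an animal. Of 11 pairs, 10 correlated over 0.1 after removal of the group means (0.0438 to 0.218 in all), and 10 were nearest to their own number, a hint from the data. With the number as a block, 11090 probes were called between the tissues, 10990 of them shared with the 11078. Signal over background limits the dim tissue: for 951 probes called higher in muscle no liver array was above background, and for 605 called higher in liver no muscle array was.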

Other observations

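On some probes the arrays split by breed type or replicate number at least as widely as by tissue. The 4 genes below were picked after their values were seen, no test was made, and the labels do not say that a number is an animal. All values are log2 ratios of sample over control. PGM1, phosphoglucomutase, stood at -1.01 to -0.71 on 4 LWDL livers and at -0.87 to -0.36 on 5 LWDL muscles, while LWDL replicate 6 stood at 1.14 in liver and 1.90 in muscle. The LWDM arrays of PGM1 were at 1.18 to 1.43 in liver and 2.10 to 2.34 in muscle, so that LWDL replicate 6 lay nearer to LWDM than to its own group in both tissues.

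MMRN2, a matrix protein of blood vessels, was at -4.29 and -3.83 in LWDL livers 1 and 4 and at -3.80 and -4.22 in the muscles with those numbers. In LWDL livers 3 and 5 it was at -0.15 and -0.27, and in the muscles with those numbers at -0.31 and -0.38. LWDL replicate 6 was at -1.89 in liver and -4.07 in muscle, muscle replicate 2 was at -3.77, and the LWDM arrays of MMRN2 lay between -0.28 and 0.13. GLRX5, a mitochondrial glutaredoxin of iron-sulfur cluster assembly, split the LWDM arrays instead. The LWDM livers 1, 3 and 4 were at -4.43, -4.07 and -3.93 and the livers 2, 5 and 6 at -1.96, -2.29 and -1.66. The LWDM muscles of GLRX5 divided at the same numbers, with -6.15, -5.67 and -6.16 against -3.04, -3.10 and -3.01.

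NID1, a basement membrane glycoprotein not called between the tissues, was lower on every LWDM than on every LWDL array. Its livers were at -4.89 to -4.52 in LWDM and -0.91 to 0.34 in LWDL, and its muscles at -4.54 to -3.81 in LWDM and -1.90 to -0.38 in LWDL. The cause of these splits was not tested.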
